A study of Mus musculus with 743 samples.

Results

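Schwann cells (SCs) of the newborn sciatic nerve that carried transcripts of Ncmap and were not cycling are described here. They numbered 119 of 743 sequenced wells and 119 of the 621 cells kept. They were selected on measured values, by a rule on 3 genes. A kept cell had reads of at least 1500 genes, and it was called Ncmap-positive when Ncmap took at least 50 CPM (reads per 1000000 counted reads of that cell) and Mki67 and Top2a, both transcribed in dividing cells, together took less than 50 CPM. Each was compared with the 392 kept cells in which both values lay under 50 CPM, called Ncmap-low here. The 110 cycling cells, with Mki67 and Top2a at 50 CPM or more, are given as a further reference.

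All cells came from mice at postnatal day 1 and form 1 group. The mice were P0Cre-/+: ReYFPTg/+: βAct-DsRedTg/+ on the C57BL/6J background, so that the Cre transgene switched on eYFP in SCs, while DsRed was driven by the actin promoter. Cells positive for eYFP were sorted singly onto 2 plates, each with cells pooled from its own male and female mice, and libraries were made by Smart-seq2, a full-length protocol without molecular identifiers. The plate was the replicate (n = 2), cells were not, and p-values therefore measure the spread between 2 pools only. The number of cells in the nerve was not measured, and shares are shares of sorted cells.

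Promyelinating SCs have sorted out 1 large axon each and are about to wrap it. Entry into myelination is driven by the transcription factor Egr2 together with Sox10, and it brings on genes for compact myelin, for the non-compact channels and junctions of the sheath, and for the lipids of the myelin membrane. Genes of the immature stage, such as Ngfr and Jun, are turned down at the same time. Ncmap itself encodes a small membrane protein of non-compact myelin in peripheral nerve. RNA does not show whether a cell was in a 1:1 relation with an axon, so the cells are called Ncmap-positive throughout.

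On plate 1, 59 of 287 kept cells were Ncmap-positive (20.6%, exact 95% binomial interval 16.03 to 25.70%). On plate 2 the number was 60 of 334 (17.96%, 13.997 to 22.51%). The plates averaged 19.3% ± 1.83 (SD, n = 2), and their intervals, which cover counting error only, overlapped. Summed reads of the Ncmap-positive cells were 52138499 on plate 1 and 52068140 on plate 2, and those of the Ncmap-low cells 159883955 and 172878954. Median depth per cell was 905794 and 831680 reads in the Ncmap-positive cells, against 950150 and 795029 in the Ncmap-low cells. Ncmap-positive cells had more detected genes, with medians of 3690 and 3550 against 2775 and 2819. After each cell was thinned to 50000 reads, which left out 4 cells of these classes, medians were 3013 ± 76.0 and 2349 ± 51.6 genes (SD, n = 2). The part of this difference in the results below was not tested.

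The values of Ncmap (ENSMUSG00000043924, chr4:135369576-135398227, minus strand, GRCm38) chose the cells and are a description. In Ncmap-positive cells of plate 1 it ranged from 85.3 to 4793 CPM with a median of 1367, and on plate 2 from 50.3 to 4684 CPM with a median of 1392. Just inside the threshold lay cells at 85.3 and 90.3 CPM on plate 1 and at 50.3 and 54.8 CPM on plate 2. Just outside it lay cells at 30.6 and 25.8 CPM on plate 1 and at 43.3 and 34.2 CPM on plate 2. Few cells were near the threshold, since 168 of 175 Ncmap-low cells on plate 1 and 211 of 217 on plate 2 had no read of Ncmap. A cell without a read is not shown to lack the transcript. Among cycling cells, 0 of 53 on plate 1 and 1 of 57 on plate 2 had Ncmap at 50 CPM or more.

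**Figure D1:**
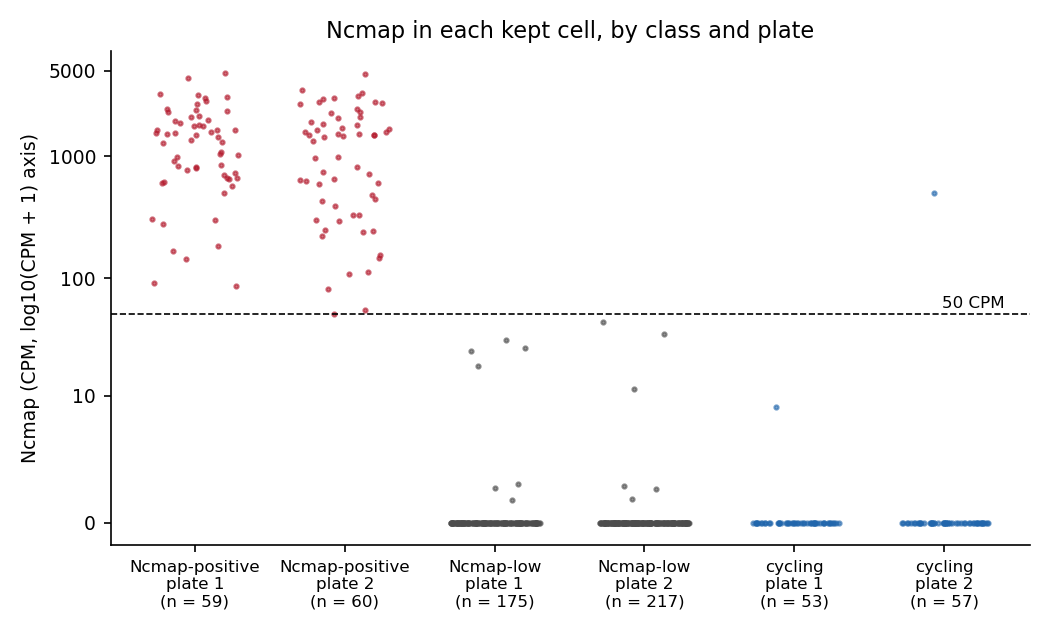
Ncmap in each of the 621 kept cells, in CPM on a log10(CPM + 1) axis, by class and plate. Each point is a cell and the dashed line is the 50 CPM used to select the Ncmap-positive cells, which reached medians of 1367 and 1392 CPM, while most cells of the other classes had no read.

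Together with Ncmap, 7 genes marked these cells in earlier results of the same data. Egr2 is the transcription factor named above, Pmp2 a fatty acid binding protein of compact myelin, Prx the scaffold periaxin, which is linked to the dystroglycan complex through Drp2, and Mag an adhesion protein of the membrane facing the axon. Gldn encodes gliomedin, a secreted protein that clusters sodium channels at nodes, and Emid1 an extracellular protein. Of the 7, 5 were called higher in the Ncmap-positive cells and 0 lower by edgeR's quasi-likelihood test on reads summed per plate and class, at a Benjamini-Hochberg adjusted p under 0.05 over 13289 genes. Over all genes tested, 0.489% were called higher and 1.29% lower. The panel was picked on these cells, so its count is not independent evidence.

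Pmp2 (chr3:10179851-10183929) took 2265 and 2175 CPM in the Ncmap-positive sums of plates 1 and 2, against 57.2 and 71.8 CPM in the Ncmap-low sums. The classes did not overlap, and the log2 fold change was 5.19 ± 0.399 (SE), with an adjusted p of 0.000673 by edgeR. Reads of Pmp2 were found in 103 of 119 Ncmap-positive cells and in 40 of 392 Ncmap-low cells. Gm37389, an annotated gene of the same strand that shares exons with Pmp2, moved in parallel (2123 and 2027 against 53.3 and 67.7 CPM), and the reads of these genes cannot be told apart here.

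Emid1 (chr11:5106265-5152257) took 456 and 471 CPM against 10.5 and 6.13 CPM (adjusted p 0.000673 by edgeR for a log2 fold change of 5.87 ± 0.421, SE). Its sums did not overlap either, and 107 Ncmap-positive but 21 Ncmap-low cells had a read. Gldn (chr9:54286486-54341786) took 67.5 and 88.8 CPM, from 22 of 59 and 27 of 60 cells. In the Ncmap-low class a single read of Gldn was counted against 8144 in the Ncmap-positive class, which gives a ratio of 26006 (95% counting interval 4666 to 1027320) and an adjusted p of 0.00167 by edgeR. Gldn was thus read in a portion of the Ncmap-positive cells and, among the other kept non-cycling cells, in 1 read. This rests on the minimum of 1500 genes. When cells of at least 1000 genes were admitted, the log2 fold change of Gldn was 5.94 against 14.19, and its call was lost (edgeR adjusted p 0.328, between 3.59e-18 and 0.328 under the alternatives).

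Prx (chr7:27499324-27520214) was detected in all 119 Ncmap-positive cells, and also in 302 of the 392 Ncmap-low cells. Its sums were 1490 and 1635 CPM against 318 and 458 CPM (adjusted p 0.00333 by edgeR for a log2 fold change of 2.09 ± 0.232, SE). Mag (chr7:30899176-30914873) took 473 and 439 CPM against 30.8 and 75.8 CPM (adjusted p 0.0172 by edgeR for a log2 fold change of 3.19 ± 0.503, SE). For both genes the Ncmap-low sum of plate 2 was the higher of the pair, and the classes did not overlap.

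Egr2 (chr10:67535475-67542188) and Drp2 (chrX:134404551-134456573) did not pass the test. Egr2 took 333 and 307 CPM against 147 and 131 CPM, a log2 fold change of 1.28 ± 0.287 (SE), with an adjusted p of 0.0805 by edgeR. The classes did not overlap, and 113 of 119 cells against 204 of 392 had a read. DESeq2, limma, the edgeR model without a filter, the edgeR model of the 2 non-cycling classes alone and thinned reads each put Egr2 past the threshold, with values between 0.000532 and 0.323 under the alternatives. Drp2 took 1.75 and 21.5 CPM against no read in either Ncmap-low sum, which is at least 1289-fold higher when 3 reads over the class are taken as the floor (edgeR adjusted p 0.153). Its reads came from 9 cells, and 3 of them held 85.5% of these reads.

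Per cell, the markers other than Ncmap were counted. They were picked on these cells, which also had more detected genes, so the counts are a description. A share expected from each marker alone was not computed. At 50 CPM or more, at least 4 of the 7 other markers were present in 52 of 59 Ncmap-positive cells on plate 1 and 49 of 60 on plate 2 (84.9% ± 4.57, SD, n = 2). In Ncmap-low cells this was so in 7 of 175 and 11 of 217 (4.53% ± 0.756), and in cycling cells in 0 of 110, which allows a share of up to 2.73%. The median was 5 of 7 markers in the Ncmap-positive cells and 1 of 7 in both other classes, on each plate. In the Ncmap-positive class 1 cell had fewer than 2 of the other markers, and 3 had all 7. The rule on Ncmap thus placed 18 cells with at least 4 of the other markers in the Ncmap-low class.

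**Figure D2:**
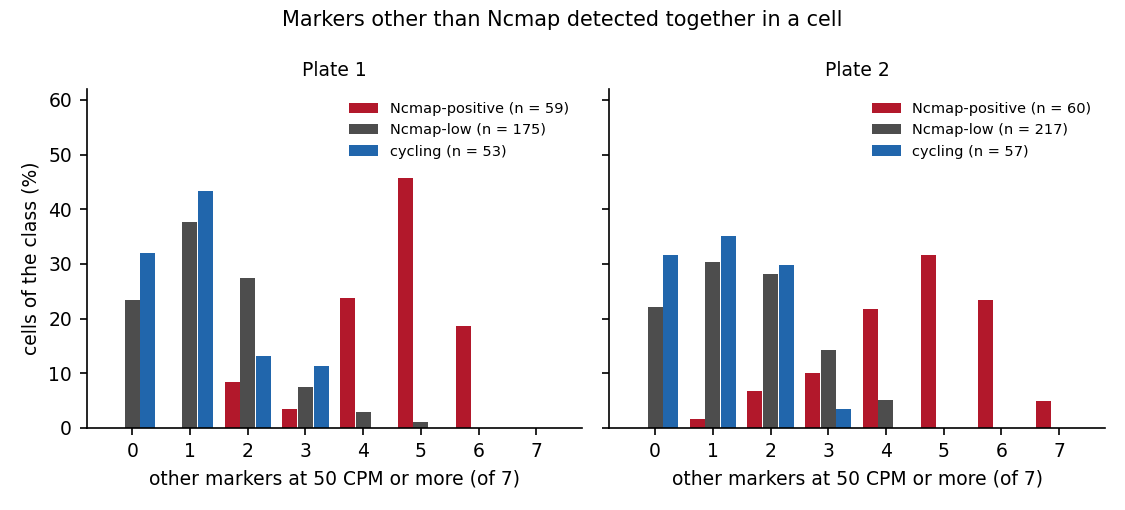
Share of cells (%) by the number of the 7 markers other than Ncmap at 50 CPM or more, for each class on plate 1 (left) and plate 2 (right). Ncmap-positive cells peak at 5 markers on both plates, whereas Ncmap-low and cycling cells peak at 1.

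Sequence before the transcription starts of the markers is shown because Egr2 and Sox10 act through short DNA motifs. Windows were taken from RefSeq (GRCm38.p6), which gave 14 starts for 6 of the 8 markers (not Pmp2 and Drp2). Each window holds the 250 bases before a start, 5′ to 3′ on the strand of the gene. Capitals mark matches, on either strand, to the letters GNGTGGG (Egr type) or to ACAAAG or ACAATG (Sox type). These motifs do not overlap in the windows below. The windows are chr4:135398228-135398477 and chr4:135385673-135385922 for Ncmap (minus strand), chr7:27499074-27499323 for Prx (plus strand), chr7:30914923-30915172 for Mag (minus strand) and chr9:54286236-54286485 for Gldn (plus strand). The second window of Ncmap lies in an intron of the gene.
Ncmap, outer start: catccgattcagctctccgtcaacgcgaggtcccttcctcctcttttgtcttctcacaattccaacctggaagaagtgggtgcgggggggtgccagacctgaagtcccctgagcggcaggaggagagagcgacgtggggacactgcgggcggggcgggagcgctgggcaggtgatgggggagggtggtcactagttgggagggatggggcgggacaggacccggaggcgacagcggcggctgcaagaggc
Ncmap, internal start: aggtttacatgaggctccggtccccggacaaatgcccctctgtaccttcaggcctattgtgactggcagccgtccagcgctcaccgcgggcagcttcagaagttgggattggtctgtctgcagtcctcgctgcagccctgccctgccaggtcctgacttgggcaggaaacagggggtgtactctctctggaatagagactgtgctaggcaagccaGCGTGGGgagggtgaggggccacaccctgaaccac
Prx: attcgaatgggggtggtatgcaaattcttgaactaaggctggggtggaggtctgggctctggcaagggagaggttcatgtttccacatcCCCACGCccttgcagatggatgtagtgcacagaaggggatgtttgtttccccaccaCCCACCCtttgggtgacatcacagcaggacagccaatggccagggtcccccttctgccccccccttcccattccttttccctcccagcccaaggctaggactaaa
Mag: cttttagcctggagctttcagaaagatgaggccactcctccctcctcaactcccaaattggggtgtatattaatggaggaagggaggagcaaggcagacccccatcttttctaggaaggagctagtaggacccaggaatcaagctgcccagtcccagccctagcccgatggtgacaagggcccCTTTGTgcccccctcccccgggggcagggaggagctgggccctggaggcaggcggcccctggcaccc
Gldn: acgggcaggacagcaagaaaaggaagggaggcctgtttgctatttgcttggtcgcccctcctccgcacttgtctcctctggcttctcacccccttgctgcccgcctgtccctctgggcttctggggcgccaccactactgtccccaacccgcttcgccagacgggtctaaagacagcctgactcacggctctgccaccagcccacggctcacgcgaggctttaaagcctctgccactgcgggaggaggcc

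Matches to the Egr-type letters were found at the internal start of Ncmap (1) and at Prx (2), and a Sox-type match at Mag (1). Among the 14 windows, 2 held the Egr-type letters and 3 the Sox-type letters, the latter in Mag and Emid1. Overlapping windows of Mag held the same match, and windows of Egr2 overlapped as well, so the windows are not independent. Of all 32851 windows of this length in the table, 27.4% held the Egr-type and 25.2% the Sox-type letters, as did 33.1% and 17.8% of the 12392 windows of genes tested here. For genes called higher in Ncmap-positive cells the shares were 29.2% and 18.5% of 65 windows of 46 genes. Shares were 34.3% and 16.3% of 172 windows of 131 genes for genes called lower. The letters are thus common in windows of any gene, and a match is not a bound site.

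Across the genome, 237 of 13289 genes differed between Ncmap-positive and Ncmap-low cells, 65 of them higher and 172 lower in the Ncmap-positive cells. All 237 had sums that did not overlap, in the same direction on both plates, as did 44.4% of all genes tested. Median log2 fold changes were 2.09 for the genes called higher and -3.19 for those called lower, and -0.07 over all genes tested. Among the genes called lower, 34 had no read in the Ncmap-positive sums. Genes of mitosis or DNA replication were among these, such as Nuf2, Cenpe, Espl1, Cdt1 and Prim1, beside genes of other kinds, such as Cxcl1 and Scn8a. The number of called genes tied to cell division was not counted, and not all genes called lower belong to the immature stage. DESeq2 called 337 higher and 670 lower, and in simulated sums it called 110 unchanged genes, where edgeR called 6 among 55 calls. In that simulation edgeR found 0 of 50 genes changed 2-fold, 11 of 50 changed 4-fold and 24 of 50 changed 16-fold, so that most genes with changes of this size would have been missed. The sources do not say if strand was used in counting, and 15 of the genes named below or above, among them Prx, Pllp, Cldn19, Cdkn1a, Cdkn1c, Cdk6, Ncam1, Jun, Tnc, Elovl1 and Ecscr, overlap exons of a gene on the opposite strand.

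**Figure D3:**
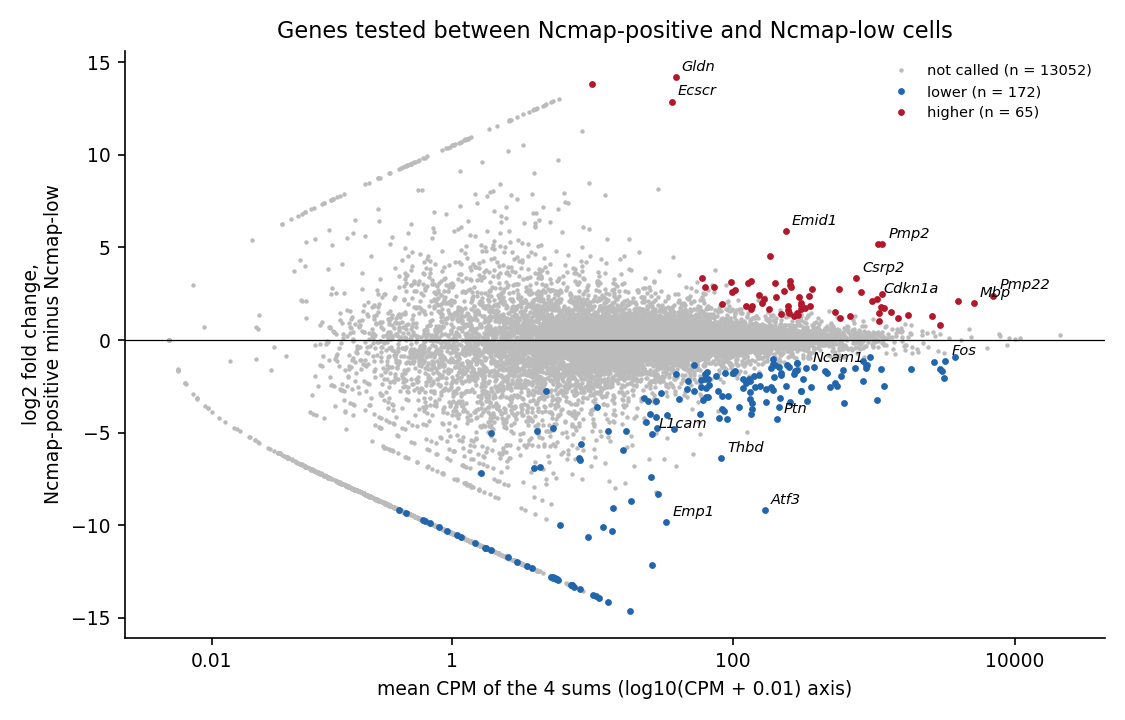
Log2 fold change of Ncmap-positive against Ncmap-low cells (vertical axis) by mean CPM of the 4 sums (log10(CPM + 0.01) axis) for the 13289 genes tested. Red points are the 65 genes called higher and blue points the 172 called lower, and the curved rows of points at the edges are genes with no read in one class, whose fitted values depend on the prior count.

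Genes of compact myelin, the tightly apposed membrane layers of the sheath, were higher in 5 of 8 cases and lower in 0, with a median log2 fold change of 2.16. For this and the lists below, the shares called over all genes tested were 0.489% higher and 1.29% lower. These shares hold for the adjusted p only. Counts at an unadjusted p under 0.05 by edgeR are given below without the share of all genes at that threshold. They have no background to be judged against and are a description. Pmp2 belongs to the panel picked on these cells, as do Mag, Prx and Gldn, which count in lists below. Pmp22, a membrane protein of compact myelin, took 11463 and 11856 CPM in the Ncmap-positive sums, against 2052 and 2639 CPM in the Ncmap-low sums (adjusted p 0.000673 by edgeR for a log2 fold change of 2.39 ± 0.154, SE). Mbp, which brings the cytoplasmic faces of the membrane together, took 8156 and 7925 CPM against 1904 and 2421 CPM (adjusted p 0.00165 by edgeR for a log2 fold change of 1.98 ± 0.191, SE). Neither gene overlapped between the classes, and both were already present in Ncmap-low cells.

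Pllp, plasmolipin, was also called higher (463 and 506 against 72.0 and 131 CPM, log2 fold change 2.34, edgeR adjusted p 0.0110), as was Pmp2 above. Mal, a proteolipid of the myelin membrane, did not pass the test. It took 2610.3 and 2361 CPM against 1854 and 1916 CPM (log2 fold change 0.48, edgeR adjusted p 0.218), without overlap. DESeq2 called Mal higher (adjusted p 0.0141, between 0.0141 and 0.262 under the alternatives).

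Of 10 genes of non-compact myelin and its junctions, 2 were higher and 0 lower (median log2 fold change 0.76). These were Mag and Cldn19, a claudin of the junctions that SC membranes form with themselves, at 743 and 404 CPM against 135 and 102 CPM (adjusted p 0.0160 by edgeR for a log2 fold change of 2.35 ± 0.364, SE). Cldn19 was detected in 115 of 119 Ncmap-positive cells and in 157 of 392 Ncmap-low cells. Of 9 genes around periaxin and dystroglycan, the link of the SC to its basal lamina, edgeR called Prx alone, and the median log2 fold change was 0.74. Sums lay apart and above those of the Ncmap-low cells for 5 of the 9 and below them for 3, where 44.4% of all genes tested lay apart. With the plate block or thinned reads 2 were called higher and 0 lower, DESeq2 called 4 higher and 2 lower, and limma 1 higher and 1 lower.

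Genes that mediate contact with the axon moved in both directions, with 1 of 9 tested higher (Gldn) and 3 lower. Ncam1, an adhesion molecule of immature SCs, took 158 and 173 CPM against 548 and 445 CPM (adjusted p 0.00986 by edgeR for a log2 fold change of -1.51 ± 0.210, SE). L1cam, another such molecule, took 0.978 and 1.92 CPM against 39.4 and 64.5 CPM (adjusted p 0.00634 by edgeR for a log2 fold change of -5.08 ± 0.643, SE), with reads in 3 of 119 Ncmap-positive cells and 125 of 392 Ncmap-low cells. Cadm1, a nectin-like adhesion molecule, took 142 and 80.5 CPM against 420 and 607 CPM (adjusted p 0.0180 by edgeR for a log2 fold change of -2.12 ± 0.340, SE). In all 3 genes the classes did not overlap. The call of L1cam was lost with Ncmap-positive cells defined at 200 CPM (edgeR adjusted p 0.189, between 1.74e-15 and 0.189 under the alternatives), and L1cam shares exon sequence with Arhgap4 on the same strand.

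Of 16 tested genes of the immature stage or of negative control of myelination, 5 were lower and 1 was higher, with a median log2 fold change of -1.59. Ngfr, the p75 neurotrophin receptor, took 0.575 and 0 CPM against 57.7 and 46.9 CPM (adjusted p 0.0495 by edgeR for a log2 fold change of -7.42 ± 1.48, SE). Its 30 reads in the Ncmap-positive class came from 2 cells of plate 1. Chl1, an adhesion molecule related to L1cam, took 9.88 and 11.9 CPM against 199 and 126 CPM (adjusted p 0.00355 by edgeR for a log2 fold change of -3.82 ± 0.434, SE). Classes did not overlap for either gene. The call of Ngfr was lost in the model of the 2 non-cycling classes alone and if 2500 genes per cell were required (edgeR adjusted p 0.0819 and 0.0513, between 3.90e-09 and 0.0898 under the alternatives).

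Tnc, a matrix glycoprotein, took 14.9 and 18.1 CPM against 114 and 88.3 CPM (log2 fold change -2.54, edgeR adjusted p 0.0192). Jun, a transcription factor that opposes the myelin program, took 132 and 139 CPM against 386 and 486 CPM (adjusted p 0.00871 by edgeR for a log2 fold change of -1.61 ± 0.218, SE). The fifth was Ednrb, an endothelin receptor, named after its values were seen to complete the count, at 1186 and 1673 CPM against 4534 and 4373 CPM (log2 fold change -1.56, edgeR adjusted p 0.00424). In each of them both Ncmap-positive sums lay below both Ncmap-low sums.

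Nes, the intermediate filament protein nestin, went the other way from the list it was placed in, at 155 and 224 CPM against 64.1 and 47.2 CPM (adjusted p 0.0446 by edgeR for a log2 fold change of 1.84 ± 0.358, SE). With the plate as a block its adjusted p was 0.0516, and with cells of at least 2500 genes 0.126, with values between 2.08e-05 and 0.126 under the alternatives. Sox2 and Gap43 did not pass. Sox2, a transcription factor of immature SCs, took 11.2 and 11.5 CPM against 23.6 and 25.7 CPM (edgeR adjusted p 0.521). Gap43, a growth-associated protein, was under 1 CPM in all 4 sums.

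**Figure D4:**
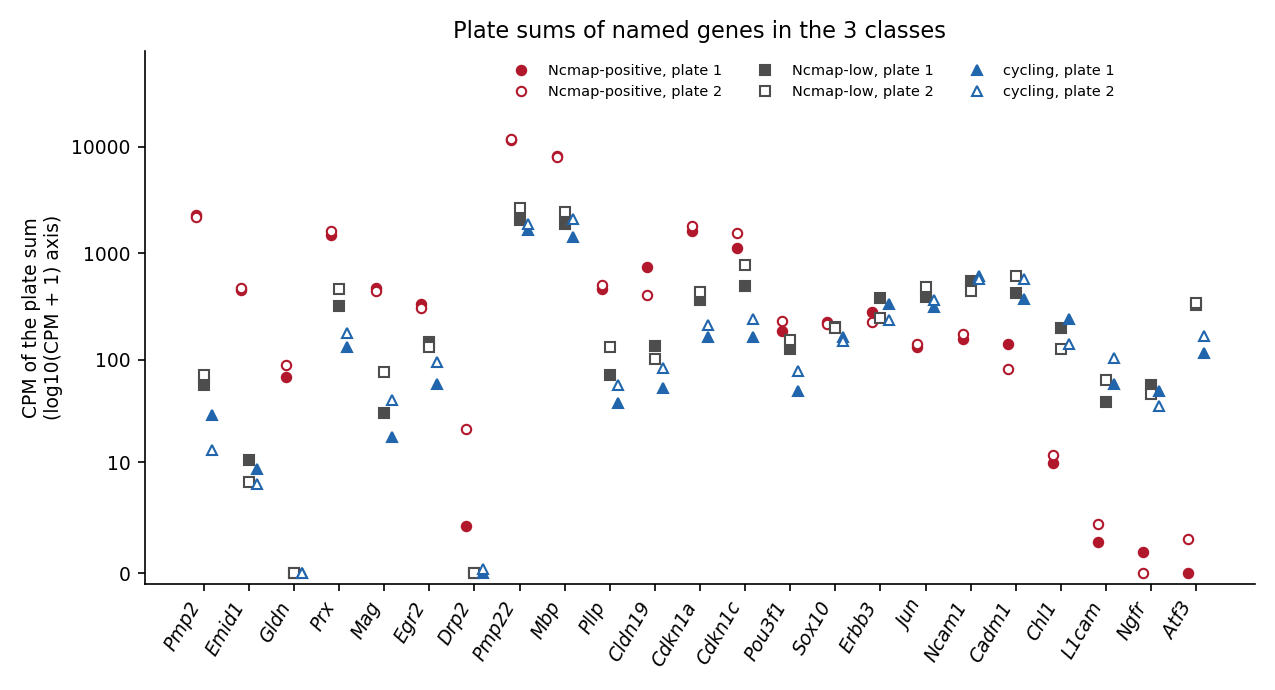
CPM of 23 named genes in the sums of each class and plate, on a log10(CPM + 1) axis. Circles are Ncmap-positive, squares Ncmap-low and triangles cycling cells, filled for plate 1 and open for plate 2. Markers, compact myelin genes and Cdkn1a lie highest in the Ncmap-positive cells, Sox10 and Erbb3 lie close together in all classes, and the genes from Jun to Atf3 lie lowest in the Ncmap-positive cells.

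No transcription factor on a list of 11 tested regulators of myelination was called in either direction by edgeR. At an unadjusted p under 0.05, 1 was higher and 0 lower, DESeq2 and limma each called 1 higher, and the median log2 fold change was 0.33. Pou3f1, also called Oct6, took 188 and 231 CPM against 125 and 152 CPM (log2 fold change 0.67, edgeR adjusted p 0.468). Sox10 took 228 and 216 CPM against 205 and 198 CPM (adjusted p 0.852 by edgeR for a log2 fold change of 0.22 ± 0.228, SE). The sums of neither gene overlapped. Nfatc4 had no read in Ncmap-positive cells and was not tested. Of 9 receptors for axonal and matrix signals, 0 were called by edgeR, with 0 higher and 3 lower at an unadjusted p under 0.05, and 1 lower in DESeq2 and 2 in limma. Erbb3, a receptor for neuregulin from the axon, took 279 and 228 CPM against 382 and 246 CPM (edgeR adjusted p 0.898).

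Among 13 genes of the cell cycle and its exit, 1 was higher and 1 lower. Cdkn1a, the inhibitor p21, took 1622 and 1813 CPM against 361 and 431 CPM (adjusted p 0.000986 by edgeR for a log2 fold change of 2.20 ± 0.194, SE). Cdk6, the kinase that works with D-type cyclins, took 461 and 489 CPM against 1257 and 1320.2 CPM (adjusted p 0.00480 by edgeR for a log2 fold change of -1.36 ± 0.163, SE). The classes did not overlap in either gene.

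The inhibitors Cdkn1c (p57) and Cdkn1b (p27) had sums that lay above those of the Ncmap-low cells but did not pass the test. Cdkn1c took 1132 and 1546 CPM against 494 and 774 CPM (adjusted p 0.0982 by edgeR for a log2 fold change of 1.16 ± 0.275, SE). In the edgeR model that held the plate as a block, Cdkn1c was called (log2 fold change 1.18, adjusted p 0.00427), as it was by DESeq2, limma, the model without a filter and thinned reads, with values between 0.000833 and 0.396 under the alternatives. Cdkn1b took 137 and 142 CPM against 36.1 and 58.2 CPM (adjusted p 0.112 by edgeR for a log2 fold change of 1.65 ± 0.407, SE, between 0.00144 and 0.219 under the alternatives). In the cycling cells Cdkn1c was at 163 and 240.5 CPM and Cdkn1a at 165 and 210 CPM, below both non-cycling classes.

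Genes for membrane lipids were higher in 4 of 18 cases, and lower in 0, for fatty acids and sphingolipids (median log2 fold change 0.72). Fa2h, the fatty acid 2-hydroxylase of myelin lipids, took 217 and 262 CPM against 12.8 and 42.9 CPM (adjusted p 0.0385 by edgeR for a log2 fold change of 3.19 ± 0.601, SE). Ugt8a, the enzyme that makes galactosylceramide, took 193 and 212 CPM against 63.0 and 72.2 CPM (adjusted p 0.0295 by edgeR for a log2 fold change of 1.66 ± 0.295, SE). Elovl1 and Elovl7, elongases of very long chain fatty acids, took 1644 and 1786 against 469 and 568 CPM, and 133 and 85.9 against 9.84 and 13.2 CPM (edgeR adjusted p 0.0266 and 0.0180). None of the 4 overlapped between classes. Requiring 2500 genes per cell, the calls of Fa2h and Ugt8a were lost (edgeR adjusted p 0.0869 and 0.0657, ranges up to 0.0869 and 0.0657 over the alternatives).

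All 20 genes of cholesterol synthesis and uptake had a log2 fold change above 0, with a median of 1.25, yet 0 were called by edgeR. At an unadjusted p under 0.05, 7 were higher and 0 lower. DESeq2 called 6, limma 2, thinned reads 3 and the plate block 0. Summed over the list, these genes took 2065 and 1752 CPM in Ncmap-positive cells, 966 and 917 CPM in Ncmap-low cells, and 753 and 1097 CPM in cycling cells. For 14 of the 20, the sums of the 2 non-cycling classes did not overlap, where 44.4% of all genes tested did not. Of 12 genes of the basal lamina, which SCs assemble around themselves, 0 were called by edgeR (0 higher and 4 lower at an unadjusted p under 0.05, DESeq2 and limma 1 lower each, the plate block 2 lower), with a median log2 fold change of -0.44.

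The 10 called genes with the largest rise, at 50 CPM or more in the higher class on both plates, included, beside Gldn, Emid1, Pmp2, Gm37389, Mag, Elovl7 and Fa2h, 3 genes outside the lists. Ecscr, known as a surface protein of endothelial cells, took 79.6 and 67.0 CPM, with 7637 reads in Ncmap-positive and 3 in Ncmap-low cells, which gives a ratio of 8129 (counting interval 2781 to 39427) and an adjusted p of 0.00296 by edgeR. It was found in 32 of 119 Ncmap-positive cells. Of 5 endothelial markers (Pecam1, Cldn5, Cdh5, Kdr, Emcn), 4 had no read in the Ncmap-positive cells, and together they took 0.0767 and 0 CPM there.

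Slc36a2, an amino acid transporter, took 406 and 297 CPM against 7.09 and 24.5 CPM (adjusted p 0.0143 by edgeR for a log2 fold change of 4.56 ± 0.688, SE). Csrp2, a protein with LIM domains, took 1359.8 and 1355 CPM against 126 and 157 CPM (adjusted p 0.0212 by edgeR for a log2 fold change of 3.34 ± 0.553, SE), and was found in 115 of 119 Ncmap-positive cells and 132 of 392 Ncmap-low cells. The classes did not overlap in these genes. Csrp2 lost its call without a filter on low counts (adjusted p 0.304) and Slc36a2 with cells of at least 2500 genes (adjusted p 0.131), and over all alternatives the adjusted p was lowest in DESeq2, at 1.91e-10 and 2.06e-12. Adamtsl2, a matrix protein named after its values were seen, was the third gene called higher, beside Gldn and Ecscr, with at most 3 reads in the Ncmap-low class, at 15.9 and 23.9 CPM against no read, at least 2209.8-fold higher against the floor of 3 reads (edgeR adjusted p 0.0427).

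Among called genes with at least 50 CPM in the higher class on both plates, 10 with the largest fall were taken, which leaves out genes named above at lower levels. Of these, Ptn, the growth factor pleiotrophin, took 16.9 and 21.4 CPM against 347 and 434 CPM (adjusted p 0.000501 by edgeR for a log2 fold change of -4.27 ± 0.247, SE). Thbd, thrombomodulin, took 2.26 and 1.38 CPM against 177 and 147 CPM (adjusted p 0.000673 by edgeR for a log2 fold change of -6.40 ± 0.478, SE). Emp1, a relative of Pmp22, had 7 reads in the Ncmap-positive class (0.134 and 0 CPM) and took 69.9 and 63.9 CPM in Ncmap-low cells (adjusted p 0.00280 by edgeR for a log2 fold change of -9.85 ± 1.04, SE). All 3 were lower on both plates, and reads were found in 17, 6 and 3 of the 119 Ncmap-positive cells.

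Tubb6, a tubulin, took 1.23 and 3.80 CPM against 85.4 and 62.9 CPM. Wnt6, a secreted Wnt ligand, took 1.76 and 5.67 CPM against 76.7 and 50.9 CPM. The other genes of this group were Zfp36l1, Abca8b, Matn4, Ifitm3 and Atf3, with log2 fold changes of -4.24, -4.24, -4.14, -3.99 and -9.18, and edgeR adjusted p between 0.00424 and 0.0144. Calls were lost for Wnt6 in the model of the 2 non-cycling classes (adjusted p 0.0546) and with cells of at least 2500 genes (0.112), with values between 1.33e-07 and 0.112 under the alternatives.

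Genes known to respond to tissue dissociation differed in the same comparison, with 4 of 8 lower and 0 higher in Ncmap-positive cells (median log2 fold change -1.67). Summed, they took 2205 and 2418 CPM in Ncmap-positive and 5842 and 6379.9 CPM in Ncmap-low cells. Atf3, a stress response factor, took 0 and 1.09 CPM against 328 and 344 CPM (edgeR adjusted p 0.0108), and was read in 3 of 119 and 133 of 392 cells. The call of Atf3 was lost without a filter on low counts (adjusted p 0.257, between 0.000297 and 0.257 under the alternatives). Fos took 1871 and 1961 CPM against 4386 and 4560.5 CPM (log2 fold change -1.14, edgeR adjusted p 0.0179). Egr1 took 174 and 231 CPM against 590 and 791 CPM and Ier2 13.1 and 44.9 CPM against 253 and 371 CPM (edgeR adjusted p 0.0162 and 0.0196).

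When Ncmap-low cells with a read of Atf3 were left out, a comparison added after the data were seen, 46 genes were higher and 125 lower, of which 46 and 123 were among the original calls. The panel, compact myelin and axon contact lists kept their counts (5 higher, 5 higher, and 1 higher with 3 lower). The immature list fell from 5 to 3 genes called lower, as Jun and Ngfr lost their calls (edgeR adjusted p 0.0672 and 0.0898), and the lipid list from 4 to 2 called higher, as Elovl7 and Fa2h did (0.0522 and 0.0561). The log2 fold change of Jun was then -1.09 against -1.61, that of Ngfr -6.89 against -7.42, that of Elovl7 3.08 against 3.33 and that of Fa2h 2.88 against 3.19. Among the dissociation genes Egr1, Fos and Ier2 lost their calls (adjusted p 0.106, 0.174 and 0.0522), with log2 fold changes of -1.25, -0.70 and -2.80 against -1.69, -1.14 and -3.35. S100b also fell short of the threshold (adjusted p 0.0536), although its log2 fold change was 1.73 against 1.67. The part of the dissociation genes in the other results was not tested further.

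The cells carried SC markers. Of 3 SC lineage genes tested, 1 was called higher and 0 lower by edgeR, with a median log2 fold change of 0.22. Sox10 and Erbb3, given above, were not called. S100b, a calcium binding protein of SCs, was higher in Ncmap-positive cells, at 251 and 288 CPM against 84.9 and 94.0 CPM (adjusted p 0.0446 by edgeR for a log2 fold change of 1.67 ± 0.324, SE). Of genes that define other cells of the nerve, Pdgfra, Ptprc, Tyrobp, Acta2 and Rgs5 had no read in the Ncmap-positive cells. Other listed genes did have reads there, among them Dcn, Pdgfrb, Cspg4 and Csf1r. Col1a1, on the fibroblast list, took 465 to 798 CPM in each sum of these cells by level of Ncmap (below). The summed lists took 542 and 642 CPM for fibroblasts and perineurium (against 944 and 1048 CPM in Ncmap-low cells), 18.4 and 2.77 CPM for immune cells (against 14.9 and 20.7 CPM), and 56.8 and 35.1 CPM for mural cells (against 38.2 and 53.4 CPM). By edgeR 0 genes of these lists and of the endothelial list were called, and at an unadjusted p under 0.05, 1 fibroblast or perineurial gene was lower, as it was in DESeq2 and with the plate block. Of 7 proliferation genes other than Mki67 and Top2a, 1 was called lower and 0 higher. This was Cenpf, a kinetochore protein, with 1 read against 6101 in the Ncmap-low class, a ratio of 1910.6 (counting interval 343 to 75475). At an unadjusted p under 0.05 by edgeR, 6 of the 7 were lower, and the median log2 fold change was -3.90. Summed, the 7 took 29.5 and 42.0 CPM in Ncmap-positive cells and 90.3 and 87.2 CPM in Ncmap-low cells. In cycling cells they took 4773 and 4338 CPM. Reads of proliferation genes thus remained in the Ncmap-low class, and their part in the genes called lower was not tested.

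Ncmap-positive cells were not alike among themselves. They were divided by Ncmap into cells of 50 to under 300 CPM (6 on plate 1 and 13 on plate 2), of 300 to under 1000 CPM (18 and 16) and of at least 1000 CPM (35 and 31). These bins are set by Ncmap, so the following is a description, and the lowest bin rests on few cells. Pmp22 took 3580.0, 7008 and 14281 CPM from the lowest to the highest bin on plate 1, and 4852, 8869 and 15576 CPM on plate 2. It followed the order of Ncmap on both plates.

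Pmp2, Prx, Mag, Emid1, Mal, Cdkn1b, S100b and Slc36a2 were in the order of Ncmap on both plates as well. Other genes called higher were not in this order on both plates, among them Mbp, Pllp, Cldn19, Cdkn1a, Fa2h, Ugt8a, Elovl1, Elovl7, Csrp2 and Nes. Mbp took 7615, 4665 and 9766 CPM on plate 1 and 4424, 5449 and 10150 CPM on plate 2. Pmp2 took 371, 779.8 and 3126 CPM on plate 1 and 562, 2425 and 2683 CPM on plate 2. Gldn had no read in the lowest bin on either plate, took 40.7 and 125 CPM in the middle bin, and 86.6 and 108 CPM in the highest, so that it followed the order of Ncmap on plate 1 only. Ecscr took 0 and 3.15 CPM in the lowest bin and 118 and 108 CPM in the highest. Egr2 followed no common order, at 229, 382 and 322 CPM on plate 1 and 471, 269 and 260.2 CPM on plate 2.

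Some genes ran against Ncmap. Cdkn1c took 2269, 1421 and 882 CPM on plate 1 and 2129, 1449.8 and 1365 CPM on plate 2. Cadm1 took 404, 258 and 61.96 CPM, and 121, 71.1 and 69.0 CPM. Chl1 took 114, 7.16 and 0.0595 CPM, and 29.8, 24.2 and 0.703 CPM. Egr1 took 314 CPM in the lowest and 159.6 CPM in the highest bin on plate 1, and 334 and 202 CPM on plate 2. Cells with the least Ncmap thus had the most Cdkn1c, Cadm1 and Chl1 among the Ncmap-positive cells, on both plates. Median genes per cell were 3933, 2970.0 and 3993 on plate 1 and 3271, 3464 and 3661 on plate 2 in the 3 bins.

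**Figure D5:**
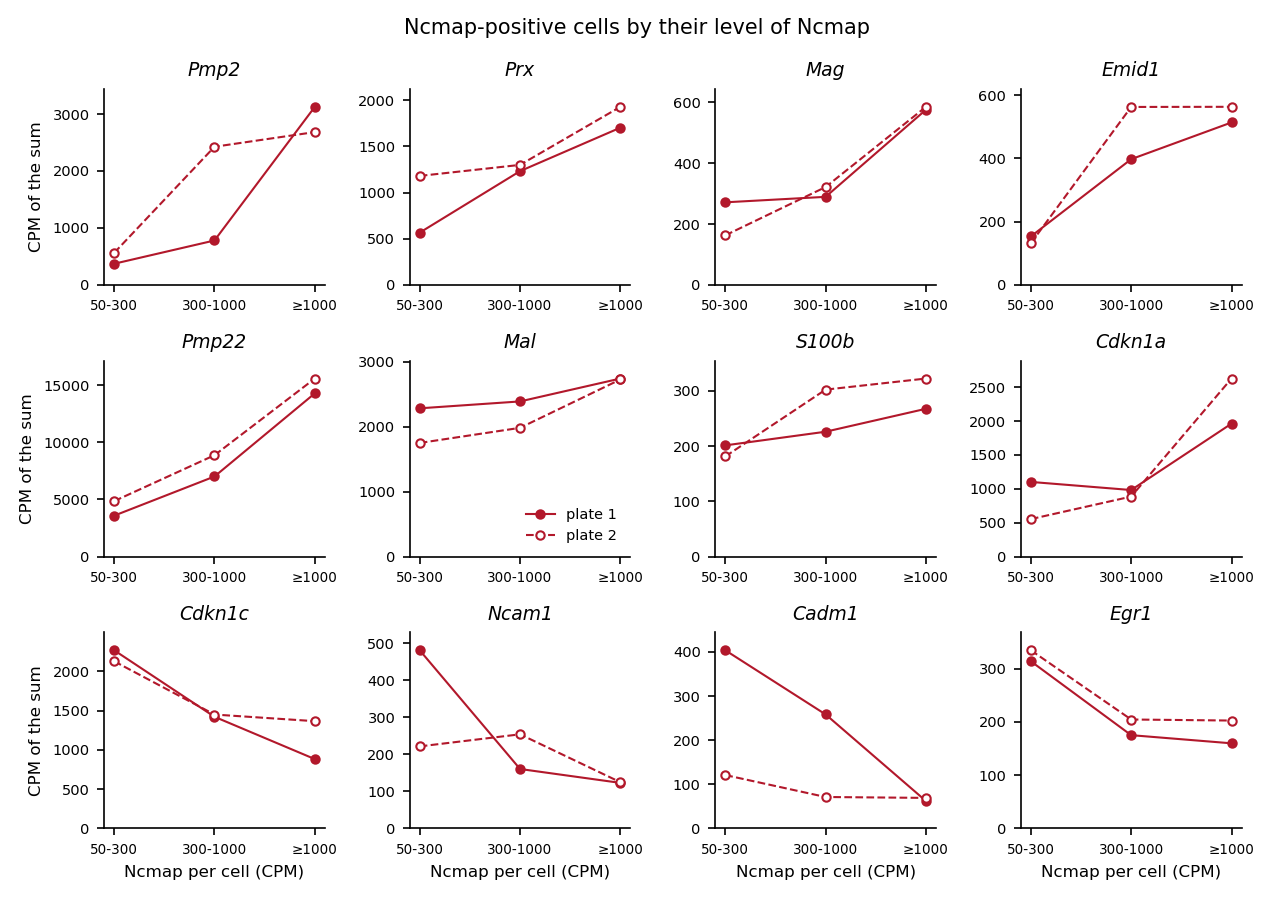
CPM of 12 genes in sums of Ncmap-positive cells with Ncmap of 50 to under 300, 300 to under 1000 and at least 1000 CPM per cell, for plate 1 (filled circles, solid lines) and plate 2 (open circles, dashed lines). Pmp22 and S100b are highest and Cdkn1c is lowest in the bin with the most Ncmap on both plates, while Ncam1 and Cdkn1a are ordered on 1 plate only.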

How the data were processed

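Single cells were sequenced from 2 plates. What the authors deposited is a table of unnormalised read counts, genes by wells. The submitters' processing notes name bcl2fastq, STAR 2.6.1c, featureCounts and GRCm38.p5, whereas the methods of the study name another version of STAR and a human assembly, although the gene IDs are those of mouse. Whether the authors counted by strand is not given in the sources used here. The table held 25700 genes and 743 wells, plate 1 with 370 and plate 2 with 373, and 0 columns were without a sample. Symbols and positions were taken from GENCODE M21 (GRCm38), where 25587 IDs matched. No doublet caller was run, since cells were sorted 1 per well.

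Members and gene lists were chosen with earlier results of these data known. Counts of the 3 classes were summed per plate and the 6 sums were tested with edgeR 4.0.16 (TMM, filterByExpr, robust quasi-likelihood fit, class only). Ncmap, Mki67 and Top2a, which set the classes, were left out of all counts of calls. Each SE was obtained by dividing the absolute log2 fold change by the root of its F statistic. CPM is not corrected for gene length, so levels were not compared between genes. Sums of 1 plate come from the same mice, and deviations between plates correlated across 3713 genes (Pearson's r 0.151 for Ncmap-positive and Ncmap-low, 0.102 for Ncmap-positive and cycling, 0.207 for Ncmap-low and cycling sums), and a model with the plate as replicate block was tried. DESeq2 1.42.0, RLE size factors, limma 3.58.1 on log2(mean CPM + 1), no filter, 4 sums of 2 classes, other thresholds (10 or 200 CPM of Ncmap, 10 CPM of Mki67 and Top2a, 1000 or 2500 genes), thinning to 50000 reads and leaving out a plate were the others, and leaving out Ncmap-low cells with a read of Atf3 was added after seeing the data. With 1 plate left a value has no test. The steps were tested on simulated data for this comparison with 13292 genes.

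Named genes were the 8 markers, 16 further genes (2 of them not reported here, and Mbp, Pmp22, Mal, Pou3f1, Sox10, Cdkn1c, Cdkn1b, Ngfr, Ncam1, L1cam, Sox2, Jun, Gap43, Erbb3), up to 4 called genes of each of 19 lists with the largest absolute log2 fold change, and the 10 largest changes in each direction with adjusted p under 0.05, the same direction on both plates and at least 50 CPM in the higher class on both. Reads are not independent molecules, so counting intervals and the floor of 3 reads cover counting error only. Plots were drawn with matplotlib.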

Additional observations from a re-analysis of the deposited data

Results flagged for a closer look

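Ncmap reached 50 CPM or more in 4 of the 122 wells that were left out because they had reads of fewer than 1500 genes (3.28%, exact 95% binomial interval 0.900 to 8.18%), 3 on plate 1 and 1 on plate 2. These wells entered no class of the comparison, and 2 of them, with 1224 and 1068 genes, entered only the alternative with cells of at least 1000 genes. A count of 0 would have allowed a share of up to 2.46%. Their values were 1414 CPM from 1667 reads of Ncmap, 2201 CPM from 146 reads, 1650.3 CPM from 1081 reads and 9091 CPM from 2 reads, the last in a well with 220 reads in all. The wells had reads of 1224, 759, 1068 and 140 genes.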

How the results depend on the processing

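Counts of 65 genes higher and 172 lower moved by over 1.5 times with DESeq2 (337 and 670), without a filter on low counts (164 and 357), with limma (112 and 266) and with thinned reads (135 and 282). All 65 and all 172 were among the DESeq2 calls. Under the other alternatives counts stayed between 46 and 90 higher and between 117 and 205 lower, the plate block giving 90 and 205 with 62 and 160 shared. In the edgeR model of 4 sums, 83 were higher and 117 lower, so that 41.5% of calls were higher against 27.4%. The share of Ncmap-positive cells was 17.3% with Ncmap at 200 CPM or more and 23.3% among cells of at least 2500 genes, against 19.3%. The plate block changed the call of Nes and Cdkn1c and of no other named gene. Of 54 named genes with a test, 27 were called under all alternatives with a test. The sign of Gap43, which was never called, turned with the plate block (-0.11), limma (-0.90), Ncmap at 10 CPM (-0.092), cells of at least 2500 genes (-0.48) and thinned reads (-2.79), against 0.01. On 1 plate alone, with no test, the unlogged ratio of 16 called genes was over 1.5 times from the fitted fold change, with no change of direction. Among them, given as log2 ratios, were Mag (3.94 on plate 1, 2.54 on plate 2), Slc36a2 (5.84, 3.60), Tubb6 (-6.12, -4.05), Zfp36l1 (-3.59, -5.66) and Wnt6 (-5.44, -3.17). Atf3 was not tested where cells were left out by Atf3. The cause of these changes was not tested. Depth was 68389 to 1985822 reads per Ncmap-positive cell on plate 1 and 26673 to 2119276 on plate 2, and with 2 plates edgeR found 0 of 50 genes changed 2-fold in simulated data.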
